A study of Homo sapiens with 7 samples.

Results

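This account concerns 10 human genes of the E2F and retinoblastoma (RB) families, E2F1 to E2F7, RB1, RBL1 and RBL2, picked by gene symbol from a table of 24721 genes (25918 transcripts). Each of the 10 was listed with a single transcript. The table came from untreated cells labelled HepG2, a human hepatocarcinoma line, in which N6-methyladenosine (m6A), a methylated base inside messenger RNA, was mapped. RNA selected for poly(A) was fragmented to about 100 nt. In the IP group (4 libraries) it was then precipitated with an anti-m6A antibody; the input group (3 libraries) is labelled as having no antibody. Both groups are the same untreated cell line. For the 7 libraries together there was 1 table, which held no value per library: library depth is unknown, no error over replicates can be given, and IP was not tested against input.

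E2F proteins bind the promoters of genes for DNA replication and cell division. In resting cells the pocket proteins RB1, RBL1 and RBL2 sit on them and keep those genes off; when cyclin-dependent kinases phosphorylate the pocket proteins, the E2F factors are released and the cell enters S phase. E2F1, E2F2 and E2F3 are the activators of the family, E2F4 and E2F5 mostly repress together with pocket proteins, E2F6 lacks the pocket-binding part and represses with Polycomb-type complexes, and E2F7 is an atypical repressor that binds DNA without a DP partner. In messenger RNA, m6A lies mostly near the stop codon and in long exons, within the consensus RRACH, and is known to shorten the life of many transcripts.

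Of the 10 genes, 6 had at least 1 listed m6A peak, against 29.1% of all genes in the table and 35.6% of coding genes. Among coding genes within the members' range of expression the share was 64.3%, which is close to 6 of 10. Peaks were listed for all 3 activators, 1 of the 3 repressors E2F4, E2F5 and E2F6 (E2F4) and 1 of the 3 pocket proteins (RB1). The atypical factor E2F7 had 1 peak. The activators and E2F4 were also more highly expressed than E2F5, E2F6 and the pocket proteins, so role and expression cannot be told apart. Together the 6 genes carried 10 peaks. Each of E2F1, E2F2, E2F3 and E2F4 had 2, as did 26.2% of coding transcripts with a peak, and E2F7 and RB1 had 1 each. No peak was listed for E2F5, E2F6, RBL1 or RBL2. Counting only peaks with a score of at least 3, E2F1, E2F2, E2F3 and E2F4 remained (4 of 10, against 20.1% of all genes), and at a score of at least 4 E2F2 and E2F3 (2 of 10, against 10.5%). Both shares are over all genes, many of them at the lowest expression, and were not taken within the members' range. An excess cannot be read from them.

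For 7 of the 10 peaks the transcript held RRACH (with A or G for each R and any base but G for H, searched on the RNA strand only) within 50 nt of the listed position. These 7 are shown because they are the candidate bases under each peak. Each is 29 bases of a GENCODE transcript, 5′ to 3′, with a pentamer of the consensus in capitals: GGACT where the 100 nt around the peak held it, otherwise the nearest one that begins with GGAC.
E2F3 stop codon peak: cctgctgcaagaGGACTatctcctgagcc
E2F2 stop codon peak: ctgcctgcacagGGACAttggacactagg
E2F4 stop codon peak: ggggttgcctggGGACCtctcccacccga
E2F1 stop codon peak: ctgtgactttggGGACCtcacccccctgg
E2F4 start peak: gaaaagagcctgGGACTgctcaccaccaa
E2F2 start peak: agggcacgccggGGACCcctccccagagc
E2F7 coding sequence peak: aacggtctgaatGGACAagtggatgtctc

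In the order shown, these windows lie on GRCh38 at chr6:20490316-20490344 (plus strand, exon 7, coding), chr1:23509784-23509812 (minus strand, exon 7, 3′ UTR), chr16:67198172-67198200 (plus strand, exon 10, 3′ UTR), chr20:33676740-33676768 (minus strand, exon 7, coding), chr16:67192282-67192310 (plus strand, exon 1, coding), chr1:23531108-23531136 (minus strand, exon 1, 5′ UTR) and chr12:77030141-77030169 (minus strand, exon 10, coding). The capital A of the pentamer lay 5 nt from the listed position in E2F3, 14 nt in E2F2 and 16 nt in E2F4 at their stop codon peaks. It lay 40 nt away in E2F1. For the other windows the distance was 40 nt (E2F4 start), 32 nt (E2F2 start) and 27 nt (E2F7). A pentamer that begins with AGAC was closer in 3 cases, at 16 nt for the E2F1 stop codon peak, 11 nt for that of E2F4 and 25 nt for the E2F2 start peak. A peak position from fragments of about 100 nt does not single out a base.

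The highest peak score among the 10 genes was in E2F3, an activator that drives entry into S phase (chromosome 6, 20510116 to 20601924, plus strand; here and below in the table's own coordinates, whose build is not stated, with starts counted from 1). Its peak at position 1620 of the transcript had the authors' score of 7.31. The score has no stated scale, so it is read here by its order among peaks: 7th of the 12769 peaks of the table, and above 99.9% of the stop codon peaks of coding transcripts. The position lay in the coding part of exon 7, 105 nt before the end of the stop codon. A second peak at position 2005, in the 3′ UTR part of the same 3547 nt exon and 280 nt after the stop codon, scored 5.36, above 94.9% of 3′ UTR peaks. No RRACH lay within 50 nt of this second peak; the nearest was 105 nt away. The pair of a stop codon and a 3′ UTR peak in 1 exon was found in 17.0% of the 1831 coding transcripts with 2 peaks. E2F3 makes 2 well-known proteins from alternative first exons. The base at 1620 is in 2 of its 3 coding GENCODE transcripts and the base at 2005 in all 3, so the table's assignment to 1 transcript does not tell which isoform carried the mark.

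E2F2, a further activator (chromosome 1, 23705509 to 23730300, minus strand), had a peak of score 5.50 at position 1810, 68 nt after the stop codon in the 3719 nt exon 7. That score ranked 419th of all peaks and above 95.1% of stop codon peaks. Within 50 nt of it lay 3 RRACH pentamers, and the nearest is the one shown above. Its other peak, at position 68 in the 5′ UTR, scored only 2.38, above 27.9% of start peaks. Start peaks, as the authors label them, lie near the transcript's 5′ end, and 87.0% of those in coding transcripts were in exon 1.

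E2F1, the founding member of the family (chromosome 20, 31726953 to 31737871, minus strand), had the same arrangement at lower scores. Its stop codon peak at position 1392, in the coding part of the 1494 nt exon 7 and 62 nt before the end of the stop codon, scored 3.80, above 61.5% of stop codon peaks. Its start peak at position 86, in the 5′ UTR, scored 2.26 and was above 19.4% of start peaks. That start peak had no RRACH within 50 nt, the nearest being a GGACT 63 nt away.

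E2F4, the most abundant repressor of the family in many cell types (chromosome 16, 65783569 to 65790322, plus strand), was the only one of E2F4, E2F5 and E2F6 with a peak. Its stop codon peak at position 1352 scored 3.99, above 66.8% of stop codon peaks, and lay 47 nt into the 3′ UTR in the 911 nt exon 10. Its start peak at position 92, scoring 2.89, was the highest of the 4 start peaks of the family and stood above 59.0% of start peaks. That position is already 29 nt into the coding sequence.

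The peaks of E2F7 and RB1 were both weak. E2F7 (chromosome 12, 75939157 to 75983491, minus strand) had 1 peak of score 2.37 at position 1823 in exon 10 (502 nt), the only 1 of the 10 that the authors assigned to the coding sequence, and it stood above 18.5% of coding sequence peaks. RB1, the retinoblastoma tumour suppressor (chromosome 13, 47775884 to 47954027, plus strand), had 1 start peak of score 2.40 at position 106, in the 5′ UTR part of the 303 nt exon 1, above 29.4% of start peaks. No RRACH lay within 50 nt of the RB1 peak, and the nearest was 73 nt away. E2F7 and RB1 ranked 6453rd and 6371st of the 7200 genes with a peak by their highest score, against 7th for E2F3, 410th for E2F2, 2611th for E2F4 and 2991st for E2F1.

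**Figure D1:**
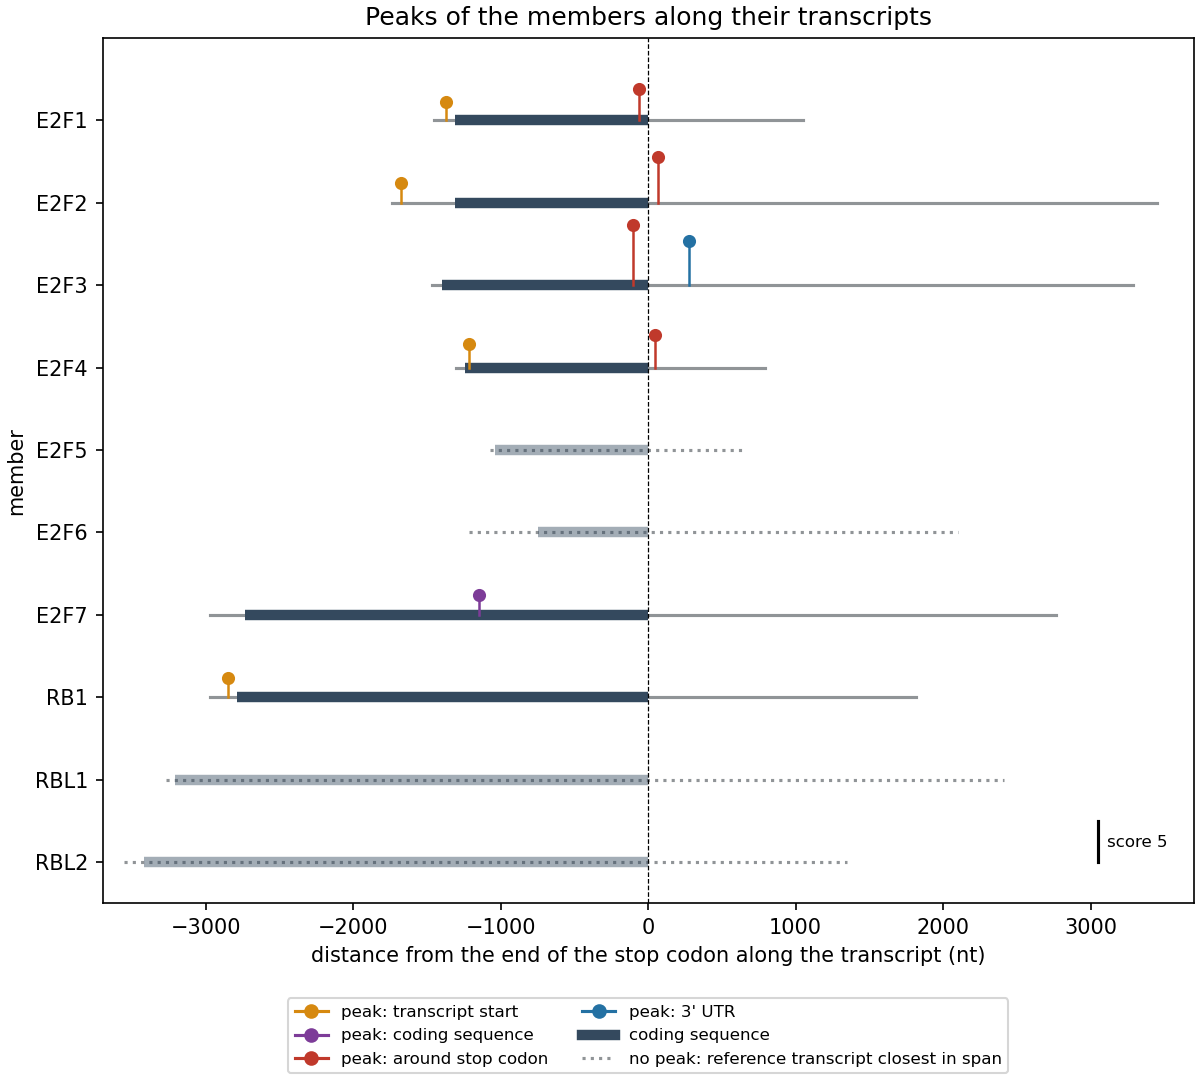
Each line is the transcript of a member, placed by distance from the end of its stop codon in nt, with the coding sequence thick (dotted: reference transcript closest in span, for members without a peak); upright lines mark the listed peaks and their height is the authors' score (scale bar, score 5). Stop codon peaks were listed for E2F1, E2F2, E2F3 and E2F4 only among these 10 genes, and the tallest, in E2F3, scored 7.31.

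By the authors' segments, the 10 peaks fell as 4 around the stop codon (40.0%), 4 at the transcript start (40.0%), 1 in the coding sequence and 1 in the 3′ UTR. Over all 12424 peaks of coding transcripts, 27.6% were around the stop codon, 12.5% at the start, 36.6% in the coding sequence and 20.5% in the 3′ UTR. Per transcript, a stop codon peak was listed in 4 of the 6 members with a peak (47.4% of coding transcripts with a peak), a start peak in 4 (22.2%), a coding sequence peak in 1 (39.6%) and a 3′ UTR peak in 1 (26.9%). With 10 peaks from 6 genes, these shares are descriptions of the genes and were not tested. The 4 start peaks lay at positions 68, 86, 92 and 106, around the median of 97 for all start peaks. The 4 stop codon peaks lay on both sides of the stop codon, 2 before its end (E2F1, E2F3) and 2 after it (E2F2, E2F4). Among 2099 stop codon peaks of transcripts matched to GENCODE, 58.2% lay after it, and 99.2% lay in the last exon, as did all 4 here.

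A start and a stop codon peak together were found in 3 members, E2F1, E2F2 and E2F4. Of coding transcripts with a peak, 6.37% had both, and of those with exactly 2 peaks 15.2% had 1 of each. In each of the 3 the stop codon peak scored higher, with 3.80 against 2.26 in E2F1, 5.50 against 2.38 in E2F2 and 3.99 against 2.89 in E2F4. This was also the commoner order in general: the stop codon peak was the higher in 71.7% of the 445 transcripts with both.

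**Figure D2:**
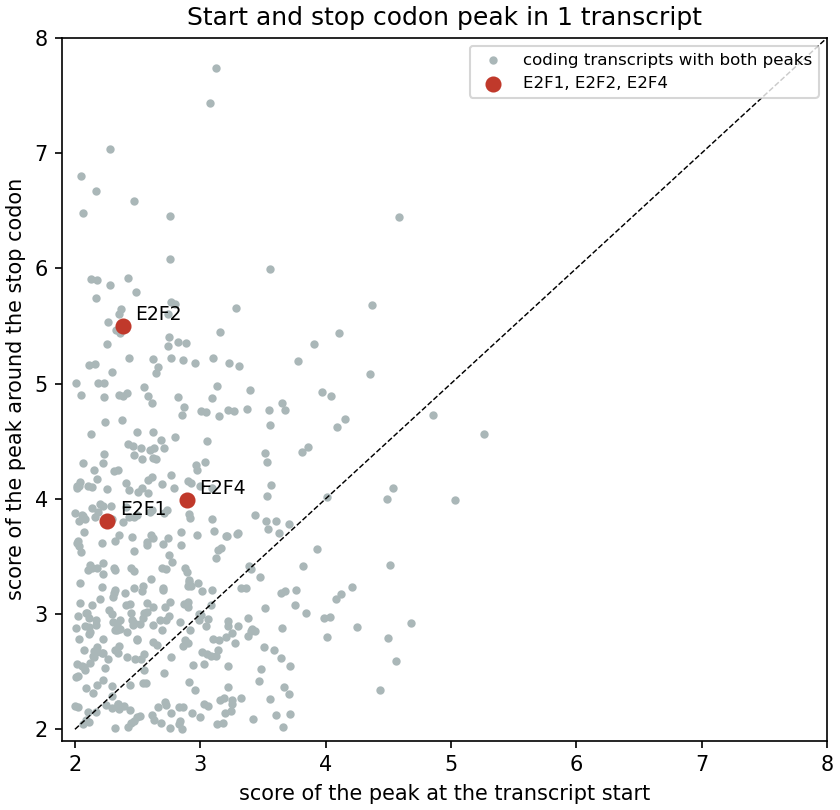
Score of the stop codon peak against the score of the start peak (authors' score on both axes) for the 445 coding transcripts that had both; the dashed line marks equal scores. E2F1, E2F2 and E2F4 lie above the line, as 71.7% of these transcripts do.

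The expression quantile, the authors' rank of a transcript from 0 to 1, was highest for E2F1 (0.932) and E2F4 (0.919), followed by E2F2 (0.849), E2F3 (0.771), E2F7 (0.702), RBL2 (0.699), E2F5 (0.649), RB1 (0.644), RBL1 (0.636) and E2F6 (0.595). No spread over libraries is given, so neighbours in this order cannot be separated, and no source says whether the rank takes account of transcript length. The 4 members without a peak had quantiles of 0.595 to 0.699 with a median of 0.643, against 0.644 to 0.932 with a median of 0.810 for the 6 with one. The groups overlapped: RB1, with a peak, ranked below RBL2 and E2F5, which had none. In bins of the quantile, the share of coding genes with a peak was 53.1% above 0.6 and up to 0.7, against 1 of the 4 members there, and above 0.5 and up to 0.6 it was 28.8%, against 0 of 1. Above 0.7 all 5 members had one, where the share of coding genes was 65.7% up to 0.8, 71.9% up to 0.9 and 69.6% beyond.

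**Figure D3:**
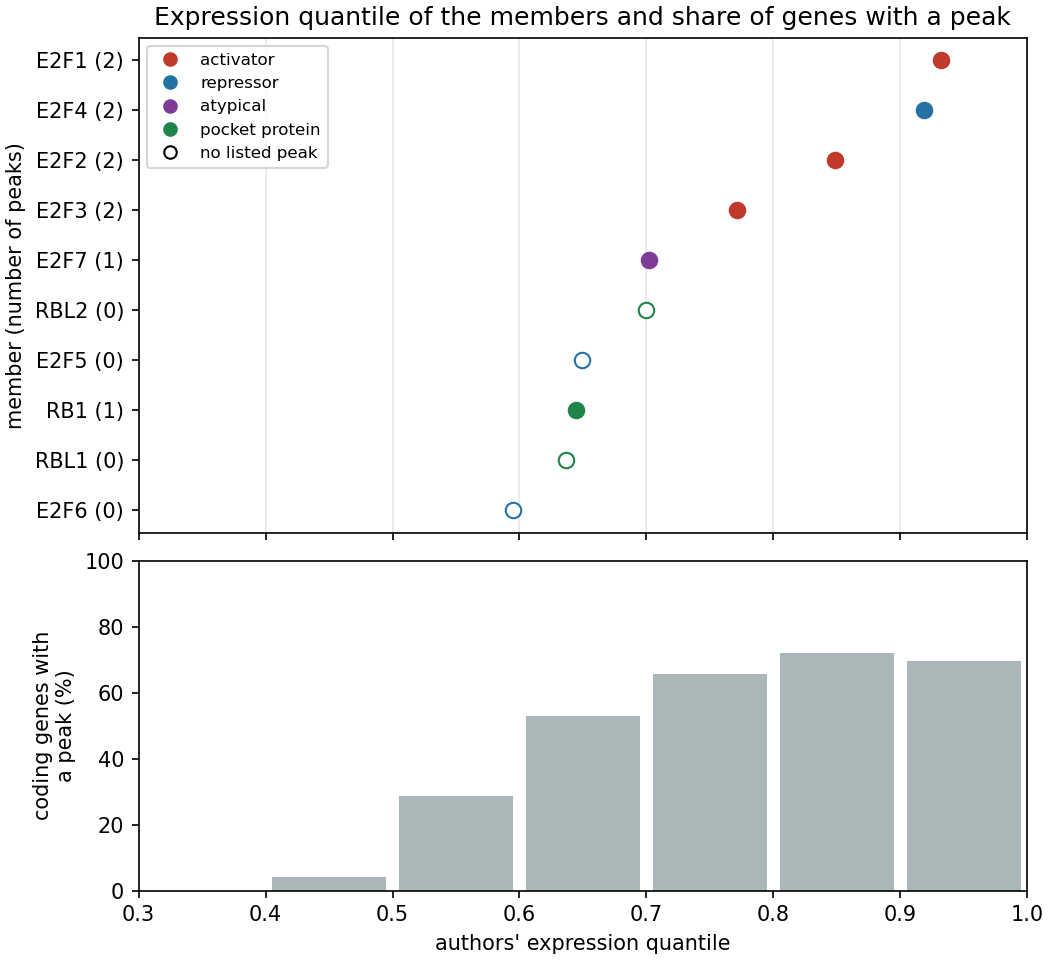
Top, the authors' expression quantile of each member, with filled points for members with a listed peak and the number of peaks in brackets; bottom, the share of coding genes with a peak in bins of 0.1 of the same quantile. All 5 members above 0.7 had a peak, and 4 of the 5 below it had none. E2F7 (0.702, with a peak) and RBL2 (0.699, without) lie on either side of this edge and cannot be separated.

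The stop codon peaks were found in the 4 members of highest expression quantile, and in none of the other 6. Among coding genes at quantiles between those of E2F3 and E2F1, 36.2% had a stop codon peak, and 23.0% did between E2F6 and E2F7. These ranges were set by where the members lie, and the part of expression in the split was not tested. Within the 4, the order of scores was the reverse of the order of expression: E2F3 (7.31) was followed by E2F2 (5.50), E2F4 (3.99) and E2F1 (3.80). E2F4 and E2F1 are neighbours in expression that cannot be separated. Across the 3314 coding transcripts with a stop codon peak, score and quantile were only weakly related (Spearman rho across transcripts -0.10), and transcripts share libraries and peak calling, so the rho is a description. The median of their scores was 3.54 above a quantile of 0.7 and up to 0.8, where E2F3 lies, and 3.26 above 0.9, where E2F1 and E2F4 lie. E2F3 and E2F2, with the higher scores, also had the longer last exons, 3547 and 3719 nt against 1494 nt for E2F1 and 911 nt for E2F4. Within each of these pairs the member with the longer exon had the lower score. The part of exon length in the scores was not tested. For all transcripts with a stop codon peak the median score was 3.88 in exons over 3000 nt, 3.34 in those over 1000 and up to 2000 nt and 3.49 in those over 500 and up to 1000 nt (Spearman rho with exon length 0.17, a description likewise). E2F3 and E2F2 stood above the upper quartile of 4.66 for exons over 3000 nt.

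**Figure D4:**
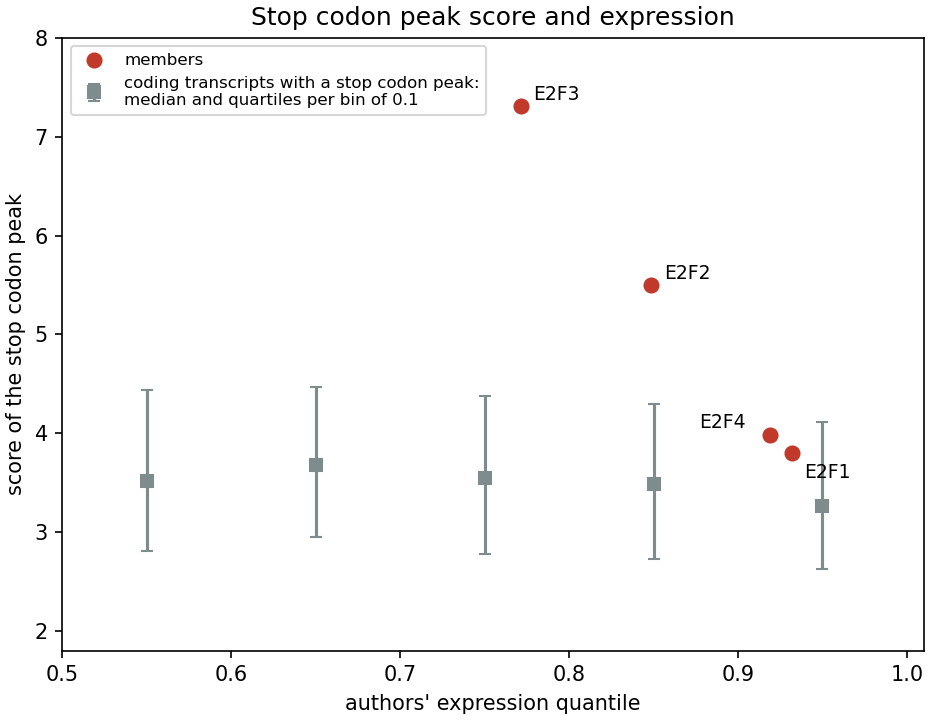
Authors' score of the stop codon peak against the authors' expression quantile for E2F1, E2F2, E2F3 and E2F4 (red), with the median and quartiles of all coding transcripts with such a peak in bins of 0.1 (grey). E2F3 and E2F2 stand above the upper quartile of their bins, and E2F4 and E2F1 lie between the median and the upper quartile of theirs.

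Exons of 400 nt or more held 8 of its 10 peaks, against 84.4% of all peaks of coding transcripts. The exceptions were the first exons of E2F4 (198 nt) and RB1 (303 nt), and exon 1 of E2F1, at 401 nt, lay just inside. Some long last exons held no listed peak, and the part of exon length in this was not tested. Reference last exons measured 2939 nt in E2F7, 2581 nt in RBL1, 2149 nt in E2F6, 1893 nt in RB1 and 1520 nt in RBL2. None of these held a listed peak. The length for RBL1 is uncertain, as its reference transcript differed in span from the listed one by 1414 nt.

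The consensus was frequent in all members, with or without a listed peak. RRACH was found within 50 nt of 7 of the 10 peaks, against 89.3% of 7161 peaks of matched transcripts, and within 50 nt of 69.2% to 80.0% of all positions in the 6 transcripts with peaks. The count depends on the window: 5 of 10 within 25 nt and 9 of 10 within 100 nt. In members matched within 10 nt of span, all 5 peaks had RRACH within 50 nt. The 3 peaks without it were in E2F1, E2F3 and RB1, whose spans differed by 197, 260 and 21 nt. All 4 stop codon peaks had RRACH within 50 nt (94.9% of stop codon peaks in general), and 2 of the 4 start peaks did (63.9% of start peaks). GGACT, the pentamer most often methylated, lay near 2 of the 10 peaks, the E2F3 stop codon peak and the E2F4 start peak, against 28.3% of all peaks; that is 1 of 4 stop codon peaks (31.3% in general) and 1 of 4 start peaks (14.6%). The 6 transcripts held 25 GGACT in all, so 23 of them were not within 50 nt of a listed peak. E2F2 alone had 8, none of them within 50 nt of either of its peaks, although the site at position 5 lay 63 nt from the start peak.

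The consensus also occurred in the members without a listed peak. Their reference transcripts, chosen as the closest in genomic span and therefore less certain than the matched ones, had 11.0 (E2F5), 11.2 (E2F6), 12.7 (RBL1) and 16.3 (RBL2) RRACH per 1000 nt, with a median of 11.9. The span of RBL1 differed by 1414 nt, against 20 nt or less for the others, so its values are the least certain. The 6 with peaks had 12.8 to 15.6, with a median of 14.5, so 3 of the 4 lay below all of these (RBL1 only just) and RBL2 lay above them. Each held 2 to 5 GGACT. In E2F5 (chromosome 8, 86276871 to 86314006, plus strand) 1 lay 19 nt after the stop codon, and in RBL2 (chromosome 16, 52025852 to 52083061, plus strand) 1 lay 145 nt after it. E2F6 (chromosome 2, 11501952 to 11523748, minus strand) and RBL1 (chromosome 20, 35059592 to 35157824, minus strand) had none within 200 nt of the stop codon. A site without a listed peak is not shown to be unmethylated, since the reads behind it are unknown. Whether the density of the consensus bears on the listing of a peak was not tested.

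The pathway around the family was described with 67 genes in 5 lists. Of these, 42 (62.7%) had a peak, 21 a stop codon peak and 15 a start peak. Between the lists' lower and upper quartiles of expression (0.729 and 0.956) lay 33 of them, of which 18 (54.5%) had a peak, against 70.4% of all coding genes in that range. A stop codon peak was listed for 8 of the 33, against 35.7%, and a start peak for 7, against 17.3%. These shares are descriptions and no list was tested against other genes. The median quantiles of the 5 lists were 0.824 to 0.912. Of coding genes above 0.8 and up to 0.9, 71.9% had a peak, and of those above 0.9, 69.6%. The counts per list below are to be read beside these shares.

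Among the partners that E2F factors bind DNA with and the MuvB complex, which joins E2F4 and the pocket proteins in resting cells, 6 of 9 had a peak. LIN54, the DNA-binding subunit of MuvB, scored 4.18 near its stop codon, the mitotic transcription factor FOXM1 3.79 with 4 peaks, and the E2F partner TFDP1 3.67 with 3 peaks. LIN37, a further MuvB subunit, had none at a quantile of 0.824. Of 15 genes for cyclins, the cyclin-dependent kinases that phosphorylate pocket proteins and inhibitors of these kinases, 10 had a peak. The inhibitor CDKN2B scored 4.48 with 4 peaks, cyclin D1 (CCND1) 4.06 at the transcript start and the inhibitor CDKN2D 3.78 near the stop codon, whereas the kinase CDK4 had none at a quantile of 0.961.

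Of 10 co-repressors of RB1, 7 had a peak. The scaffold SIN3A scored 5.74 in the 3′ UTR, ARID4B 4.81 near the stop codon and the histone methyltransferase SUV39H1 4.55 in the coding sequence, while the deacetylase HDAC1 had none at a quantile of 0.916. Of 9 genes of the repressive complex around E2F6, 4 had a peak, the lowest share of the 5 lists at 44.4%. MGA, its MAX-binding subunit, carried 9 peaks (highest score 4.95), the histone methyltransferase EHMT1 scored 4.40 and EPC1 4.16, each highest in the coding sequence, and EHMT2 had none at a quantile of 0.954.

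Of 24 genes that E2F factors switch on, 15 had a peak (62.5%), at a median quantile of 0.912. Among coding genes above 0.9 the share was 69.6%. The replicative helicase subunit MCM2 scored 6.80 near the stop codon, the phosphatase CDC25A 5.58 near the stop codon and the helicase subunit MCM3 5.37 in the 3′ UTR, while MCM4, a subunit of the same helicase, had none at a quantile of 0.983. E2F8, the other atypical factor and itself such a target, had no peak at a quantile of 0.630, beside the weak peak of E2F7.

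**Figure D5:**
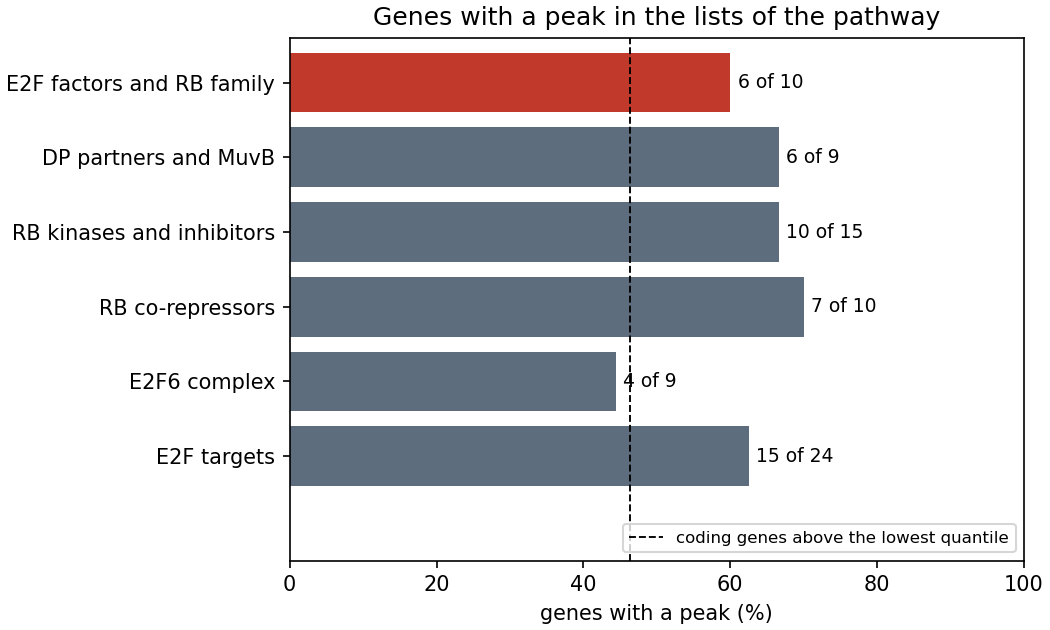
Share of genes with a listed peak in percent for the E2F and RB genes (red) and for the 5 lists of their pathway (grey), with counts beside the bars; the dashed line marks the 46.4% of coding genes above the lowest expression quantile. The share was 44.4% for the E2F6 complex and 60.0% to 70.0% for the others. The line does not match the genes in expression. Within the lists' quartiles of expression 70.4% of coding genes had a peak, and within the range of the E2F and RB genes 64.3%.

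The labelled cell type was checked against its markers, and the data went against it. Of 11 hepatocyte genes, 6 (ALB, AFP, TTR, APOA2, APOB and SERPINA1) were at the lowest quantile of the table, 0.314, which 8139 transcripts share, and the highest, FGB, was at 0.619. None of the 11 had a peak. Of 4 genes of ovarian or Müllerian epithelium, MSLN was at 0.968 and MUC16 at 0.667, while PAX8 (0.496) and WT1 (0.333) were low. The 4 proliferation genes MKI67, TOP2A, PCNA and CCNB1 ranked between 0.886 and 0.984. The cells are therefore called here by their label only.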

How the data were processed

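Per the labels, 4 anti-m6A and 3 input libraries were made from untreated cells. The deposited table gives, for each transcript, an expression quantile (a fraction from 0 to 1) and, for each peak, its position, exon, segment and score. The score is the authors' and its scale is not stated. No aligner, peak caller or build is named in the labels or the header.

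The members and lists were chosen with earlier results of these data known. Named pathway genes are the 3 highest in score of each list and its most expressed gene without a peak. KDM5A is listed as JARID1A, and ORC1 and CDK1 by RefSeq synonyms.

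Counts and medians were set beside all genes; nothing was tested. For motifs and sequences, transcripts were matched to GENCODE release 29 (GRCh38) by symbol, chromosome, strand, the exons that hold peaks and the span. An equal span was planned, but matched 0 of the 6 members with peaks. Ends were therefore allowed to differ by up to 500 nt where lengths of exons with peaks fix the difference. This matched all 6, and 4066 of 6990 coding transcripts with peaks. The match was tested on simulated data built from reference transcripts, for recovery of the true transcript and refusal of a wrong span. Whether other transcripts also fitted was not part of the test. The simulated data always had peaks in both end exons. E2F3 (peaks in the last exon only), E2F7 and RB1 were thus matched outside that setting. The end differences of E2F3 (261 nt) and E2F1 (197 nt) were also larger than those simulated. Python 3.11.15 with pandas 2.3.3 was used. Alternatives were stricter scores, merged peaks, other windows, motifs, exon lengths and backgrounds.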

Additional observations from a re-analysis of the deposited data

How the results depend on the processing

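Of 28 alternatives tried, 19 stayed within 1.5 times (or, for the median score, within 1 SD) of the reported value. Some of the 19 could not have moved, so their number is no measure of stability. Each member has 1 transcript, older symbols added 0 rows to the members, and no 2 peaks of a member lie within 200 nt. A fall from 6 to 4 members counted as within 1.5 times. With a score of at least 3, the 10 peaks fell to 5 and those in exons of at least 400 nt from 8 to 5; the members with a peak fell from 6 to 4 (E2F1, E2F2, E2F3 and E2F4), against 20.1% of all genes. With a score of at least 4, there were 2 members with a peak (E2F2 and E2F3; 10.5% of all genes), 3 peaks, 2 stop codon peaks and 20 pathway genes. The 20.1% and 10.5% are over all genes and were not taken within the members' range of quantiles, so they show no excess. The 5 peaks under 3 were the 4 start peaks and that of E2F7. With GGACT in place of RRACH, a motif chosen after seeing the data, 2 of 10 peaks had it nearby. The share of genes with a peak was 46.4% of coding genes above the lowest quantile and 64.3% within the members' range of quantiles, against 29.1% of all genes. Merging peaks within 200 nt or keeping 1 transcript a gene could not change a member count, for the reasons given above. No paired analysis was possible because the table has no column per library, and for the same reason no library could be left out. The depth of the libraries is unknown, so a gene without a listed peak cannot be told from one with too few reads.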
